A study of Mus musculus with 65 samples.

Results

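Cell cycle genes were followed across 65 single hematopoietic stem cells of aged mice. The set was a fixed list of 39 genes of DNA replication and mitosis, and its members were found by matching the NCBI gene identifiers of the deposited count table to mouse gene symbols. Of the 39 genes, 36 had a row among the 18036 identifiers of the table and were used, while Cenpf, Nek2 and Dtl were not analysed here. Of the 36, 26 had a count in at least 1 cell, 21 reached 10 or more counts in at least 1 cell, and 10 had no count in any cell.

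All cells came from bone marrow of SCL-tTAxH2B-GFP double heterozygous mice older than 20 months, in which the SCL-driven transactivator switches on a green fluorescent histone that is thinned out by each division once its production stops. They were sorted singly as long-term stem cells by surface markers (LSK cells with CD150 and with little or no CD34, Flk2 or CD48) and kept overnight at 3% oxygen without growth factors before cDNA was made. The 37 GFP-positive cells are those the study calls label retaining, and the 28 GFP-negative cells carry no visible label, so both groups carry the same alleles, age and culture and differ in the GFP gate. Biological repeats 1 to 4 hold 9, 9, 10 and 9 cells with GFP and 8, 4, 6 and 10 without, and the labels do not say whether a repeat was 1 mouse or a pool. A GFP-negative cell may have diluted the label or never have made it, and these cannot be told apart.

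A dividing cell first loads the MCM helicase at its replication origins, then copies its DNA with polymerases and ligases fed by nucleotide-making enzymes, and finally turns on the kinases, kinetochore proteins and motors of mitosis. Most of these genes are kept off in resting cells by repressor complexes and are switched on in waves, the replication genes at the entry into S phase and the mitotic genes in G2. Long-term blood stem cells are known for resting most of the time, and Mki67, which encodes a protein that coats mitotic chromosomes, is a common marker of cells outside the resting state.

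The libraries differed widely in depth and some were much alike, and both facts bear on every value below. Total estimated counts per cell ran from 86.1 to 20516069, with medians of 264894 in GFP-positive and 118056 in GFP-negative cells, and 4 GFP-negative libraries held under 10000. The 65 libraries carried 65 different index pairs. Over all 2080 pairs of libraries the median correlation of log counts was 0.272, but 5 pairs reached 0.9 or more. GFP-positive cells 20, 21 and 22 of repeat 3 correlated at 0.982, 0.936 and 0.934 with one another and shared 86.5 to 89.9% of the genes at 10 or more counts, against a median of 12.0% over all pairs, and they carry the consecutive i7 indices 703, 704 and 705 with i5 index 505. GFP-positive cell 3 and GFP-negative cell 3 correlated at 0.954, and GFP-negative cells 13 and 14 at 0.903. The counts and ratios below that rest most on these libraries are also given with each set of alike libraries counted once, which leaves out GFP-positive cells 20 and 22 and GFP-negative cells 3 and 13. Of the stem cell genes, Hlf had counts in 31 of 37 and 12 of 28 cells, while the row of Slamf1, the gene of the CD150 used in the sort, was at 0 throughout. The genes of Flt3 (Flk2) and CD48, which the sort selected against, were at 0 in all cells. Of the 6 neutrophil genes with a row, Elane, Mpo and Ltf were at 0 in all cells. Camp stood at 303 counts and Ngp at 3 in 1 GFP-positive cell each, and Prtn3 was found in 1 cell of each group, up to 48 counts.

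GFP-positive cells held more cell cycle genes at a clear level than GFP-negative cells. A gene was taken as clearly present in a cell at 10 or more estimated counts. GFP-positive cells held 3.04 ± 1.10 such members per cell (mean ± SD of 4 repeats) and GFP-negative cells 0.673 ± 0.407. By repeat, GFP-positive cells held 3.22, 2.00, 4.50 and 2.44 members, and GFP-negative cells 0.375, 1.25, 0.667 and 0.400. The repeats of both groups did not overlap. The number of members was higher in GFP-positive cells in 4 of 4 repeats, a 4.52-fold ratio of the means. The repeats did not overlap for all genes with a count either. Of these, 20.6, 11.9, 12.4 and 12.3% were at 10 or more in GFP-positive cells, by repeat. In GFP-negative cells 6.30, 4.18, 4.88 and 2.64% were. All genes behaved alike in direction: of the 6826 genes with any count, 14.3% ± 4.22 were at 10 or more in a GFP-positive cell and 4.50% ± 1.52 in a GFP-negative cell, a 3.17-fold ratio, while of the 26 members with a count 11.7% ± 4.21 and 2.59% ± 1.56 were. With alike libraries counted once, the members numbered 2.73 ± 0.61 and 0.648 ± 0.484. When each cell was brought to 10000 counts, which leaves out the 4 shallow libraries, the expected number of members with a count was 2.31 ± 0.719 and 1.69 ± 1.47, and GFP-positive cells were higher in 3 of 4 repeats. At equal depth the groups therefore overlapped, and GFP-negative repeat 2 had the highest value of all 8, at 3.72. That value is the mean of 3 cells, GFP-negative cells 10, 11 and 12, at 1.51, 4.82 and 4.84. The libraries of cells 11 and 12 correlated at 0.819, so these may not be separate observations. GFP-negative repeat 1, at 1.79, also lay above GFP-positive repeat 2, at 1.25. GFP-negative repeats 3 and 4, at 0.649 and 0.587, lay below every GFP-positive repeat.

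**Figure D1:**
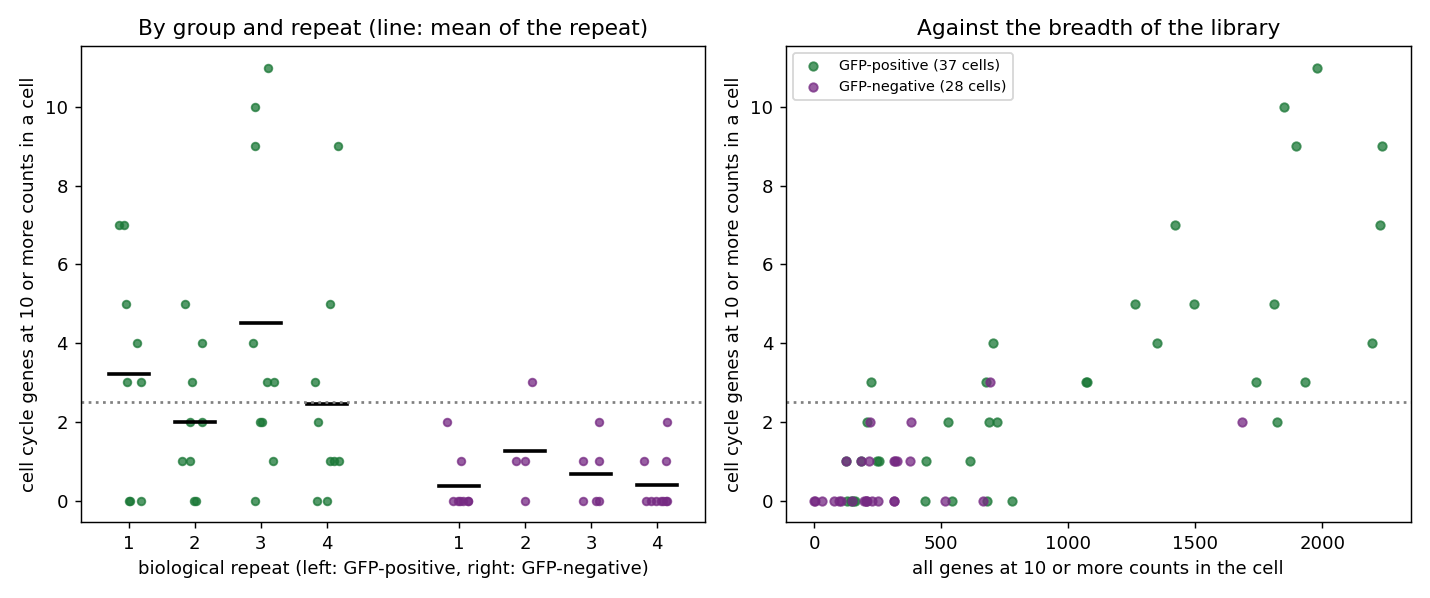
Left, cell cycle genes at 10 or more counts in each of the 65 cells, by group and biological repeat, with a line at the mean of each repeat. Right, the same number against all genes at 10 or more counts in the cell; the dotted line separates cells with 3 or more members, and the cells above it lie mostly among those with many genes at that level.

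Cells that held several members together were nearly all GFP-positive. Of the 37 GFP-positive cells, 18 held 3 or more members at 10 or more counts (48.6%, exact 95% binomial interval 31.9 to 65.6%), against 1 of 28 GFP-negative cells (3.57%, 0.0904 to 18.3%). These intervals cover counting of cells only. By repeat, 66.7, 33.3, 60.0 and 33.3% of the GFP-positive cells did so, and 0, 25.0, 0 and 0% of the GFP-negative cells. No repeats overlapped, but the GFP-negative repeat that reached 25.0% held 4 cells. The percent of all genes at 10 or more counts, given above, did not overlap between the groups either. No member reached 10 counts in 8 of 37 GFP-positive and 17 of 28 GFP-negative cells. With alike libraries counted once, 16 of 35 and 1 of 26 cells held several members. At a looser limit of 0.7 for alike libraries, 15 of 29 and 1 of 24 cells did. With any count in place of 10 or more, 29 of 37 and 17 of 28 cells held 3 or more members, and with 100 or more counts 5 and 0 did. With the 12 members whose values are whole numbers in at least 90% of the cells where they have a count, only GFP-positive cells 8, 20, 21 and 22 held 3 or more. The other 14 members have many fractional values, as when a read matches several genes and is shared out, so part of their counts may belong to other genes.

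The cells with several members also had broader libraries on the whole. In the 18 GFP-positive cells with several members, a median of 1616.5 genes of any kind stood at 10 or more counts (range 224 to 2235). In the other 19 GFP-positive cells the median was 434 genes (126 to 1822), and in the 27 GFP-negative cells without several members it was 216 (0 to 1684). Part of the range was shared, since GFP-positive cell 26 held Rad51ap1, Mcm7 and Brip1 with 224 genes at that level, and a GFP-positive cell with 1822 such genes held fewer than 3 members. The part that breadth plays in the number of members was not tested beyond the equal-depth values above.

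**Figure D2:**
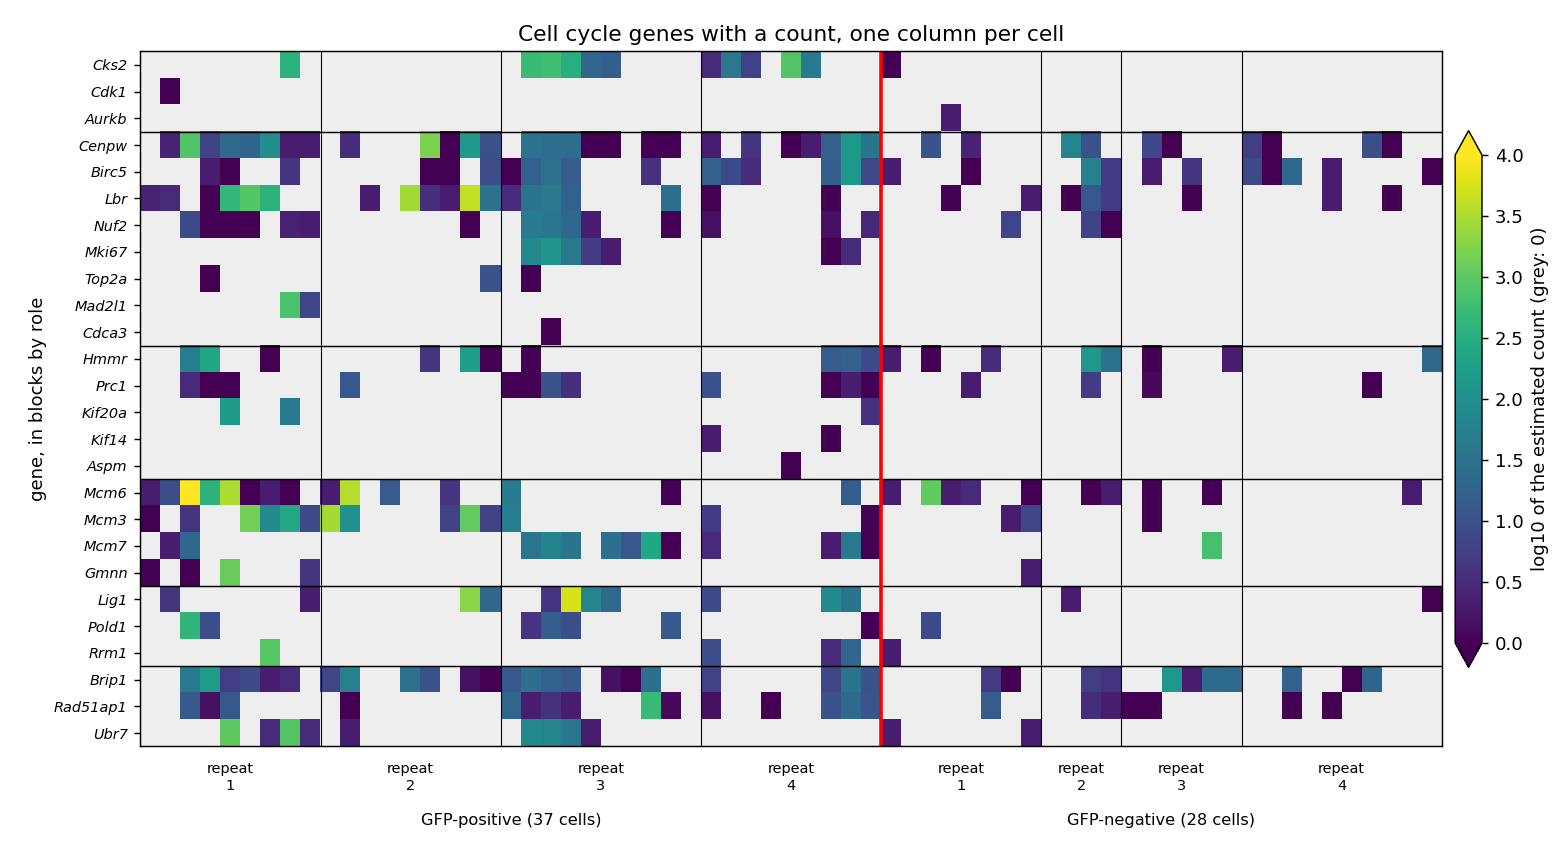
Estimated counts (log10 colour scale, grey for 0) of the 26 members with a count, in rows by role, across the 65 cells in columns by group and repeat. The block of filled cells in GFP-positive repeat 3 is cells 20 to 22, and Mki67 and Cks2 are nearly empty to the right of the red line that separates the groups.

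The combinations differed from cell to cell. The 3 alike libraries held most: GFP-positive cell 21 held 11 members, cell 22 held 10 and cell 20 held 9. Apart from these, cell 36 of repeat 4 held 9, namely Cenpw, Birc5, Mcm7, Brip1, Lig1, Rad51ap1, Rrm1, Hmmr and Mcm6. In repeat 1, cell 3, the deepest library, held Mcm6, Cenpw, Pold1, Hmmr, Brip1, Mcm7 and Rad51ap1, and cell 5 held Mcm6, Gmnn, Ubr7, Lbr, Kif20a, Cenpw and Rad51ap1. Cell 8 of repeat 1 held Ubr7, Mad2l1, Cks2, Mcm3 and Kif20a. Cell 17 of repeat 2 held Lbr, Lig1, Mcm3, Hmmr and Cenpw, and cell 35 of repeat 4 held Lig1, Cenpw, Birc5, Hmmr and Rad51ap1. The other 9 GFP-positive cells with several members held 3 or 4. The single GFP-negative cell, cell 11 of repeat 2, held Hmmr at 135.9, Birc5 at 55.5 and Lbr at 12.0 counts. The most frequent pairs were Cenpw with Brip1, Cenpw with Lbr, and Mcm7 with Brip1, each in 7 cells and in 5 with alike libraries counted once. Cks2 with Mcm7 fell from 4 cells to 2 on the same count. At a looser limit of 0.7 for alike libraries it fell to 1, while the 3 most frequent pairs stayed at 5. Replication and mitotic genes thus stood side by side in several of these cells. Brip1 and Cenpw were also the members at 10 or more counts in most cells, 17 and 14. How many shared cells such frequencies alone would give was not tested. No cell held all members of a role. For mitotic entry, origin licensing, DNA synthesis and repair none could, since each of these roles has members with no count in any cell.

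Mki67 was found in GFP-positive cells of 2 repeats. It had counts in 7 of 37 GFP-positive cells (exact 95% binomial interval 7.96 to 35.2%) and in 0 of 28 GFP-negative cells (0 to 12.3%). These intervals cover counting of cells only and take each cell as independent. The 28 include the 4 libraries under 10000 counts, and the 7 include the alike cells 20, 21 and 22. By repeat, 0 of 9, 0 of 9, 5 of 10 and 2 of 9 GFP-positive cells had a count, so 2 GFP-positive repeats were at 0 like the GFP-negative ones. The difference was not tested, since the test took genes found in at least 10 cells. In repeat 3, Mki67 stood at 78, 120, 42, 5 and 2 counts in cells 20, 21, 22, 23 and 24. In repeat 4 it stood at 1 count in cell 35 and 3 counts in cell 36. Only cells 20, 21 and 22 passed 10 counts, and these are the libraries that correlate at 0.934 or more. With alike libraries counted once, 5 of 35 cells therefore had a count and a single cell passed 10. At a looser limit of 0.7, cells 20 to 25 formed 1 set. Counting that set once left cells 21, 35 and 36 with a count. Cells 23 and 24 carry the next i7 indices, 706 and 707, and had a count for 89.8% and 84.0% of the 1403 genes at 50 or more in cell 21, against 40.8% in cell 19 and 27.3% in cell 25 at the ends of this run and up to 81.2%, in cell 29, among libraries of other repeats. Their correlations with cell 21 were 0.765 and 0.623, and that of cell 29 was 0.432. Whether the 5 libraries of repeat 3 hold RNA of 1 cell was not tested.

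Cells 20, 21 and 22 shared a mixed profile. Cks2, whose product binds cyclin-dependent kinases and helps them act, stood at 524.3, 600.1 and 322.7 counts. Ubr7, a ubiquitin ligase often listed among S phase genes, stood at 76, 68 and 37. Mcm7, a subunit of the replicative helicase, stood at 37, 64 and 34. The kinetochore gene Nuf2 stood at 42.3, 37.1 and 22 counts, Birc5, the chromosomal passenger survivin, at 17, 32.7 and 14, and Lbr, an inner nuclear membrane protein, at 34.8, 39.5 and 17.5. Lig1, the ligase that joins Okazaki fragments, set cell 22 apart, with 5736 counts against 4 in cell 21 and none in cell 20. At the same time 22, 22 and 23 of the 36 members were at 0 in these cells. Among those at 0 were Ccnb1, Plk1, Rrm2, Tk1 and Cdc6, and Top2a had 1 count in cell 20. For a gene at 0, counting error alone could have missed 3 counts, worth 0.554, 0.336 and 0.432 per 100000 counts in cells 20, 21 and 22. This bound does not cover RNA lost before counting, and the Lig1 values of these alike libraries lie much further apart. A 0 here therefore does not show that a gene was off.

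Other lists were read in the same 3 libraries. Of the 8 stem cell genes with a row, 4 had counts in each of them, while Hoxa9, Hoxb5, Gcnt2 and Slamf1 were at 0. Of the stem cell transcription factors, Hlf stood at 1122, 1234 and 657 counts and Gata2 at 448, 579 and 300 in cells 20, 21 and 22. Meis1 stood at 128, 195 and 129. Of the 16 genes of G1 and quiescence control, 11, 11 and 10 had counts. Btg2, known to hold back division, stood at 418, 546 and 255, the G1 cyclin gene Ccnd3 at 410.2, 786.7 and 262.1, and Cdk2, a kinase that promotes S phase, at 83, 93 and 68. The inhibitor genes Cdkn1b and Cdkn1c were at 0 there. The hemoglobin gene Hba-a1 was at 6.5, 16.5 and 11 counts, and the B cell genes were at 1 count or 0. Cell 36, the other Mki67-positive cell with 9 members, held Hlf at 393 and Gata2 at 276, and Btg2 was at 0 there.

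**Figure D3:**
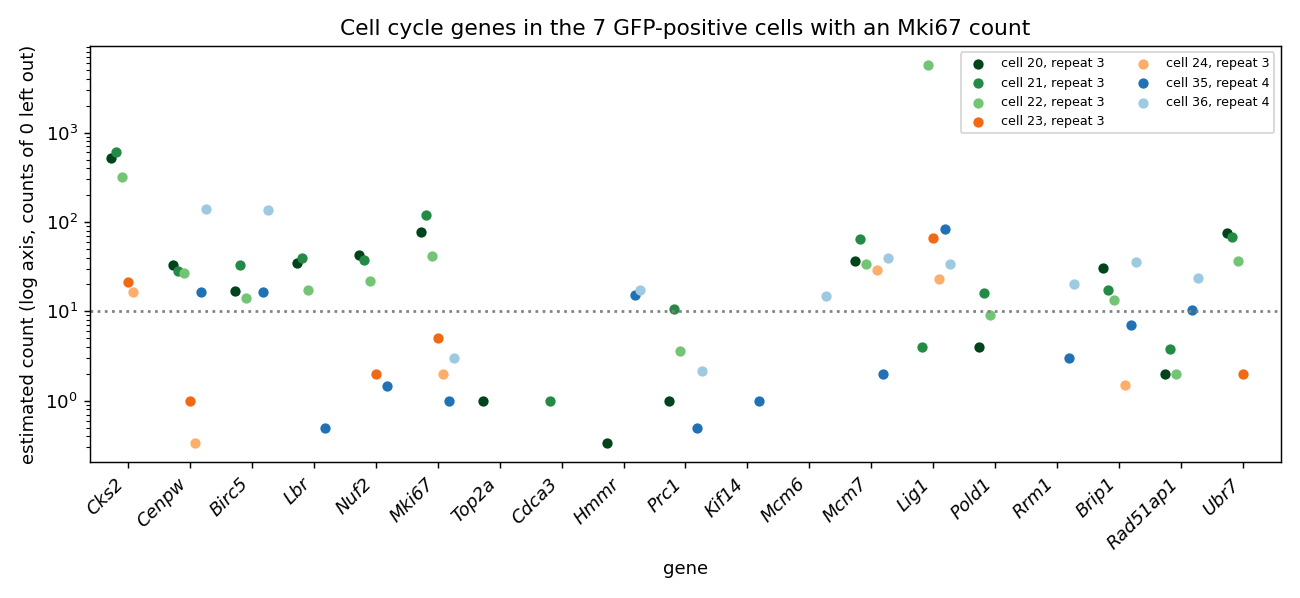
Estimated counts (log axis, 0 left out) of the members in the 7 GFP-positive cells with an Mki67 count, 1 colour per cell; the dotted line marks 10 counts. Cells 20 to 22 of repeat 3 lie close together for most members, with Lig1 of cell 22 far above, while cells 35 and 36 of repeat 4 hold Lig1, Rad51ap1 and Rrm1 and have no Cks2 or Ubr7.

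Of the kinases and partners of mitotic entry, Cks2 alone reached 10 counts. It had counts in 11 of 37 GFP-positive cells and 1 of 28 GFP-negative cells. Besides cells 20 to 22, the GFP-positive values were 363 in cell 8, 21.1 in cell 23, 16.4 in cell 24, 3, 39 and 6 in cells 29, 30 and 31, and 856 and 43 in cells 33 and 34. The 1 GFP-negative cell had 1 count. Cks2 counts were whole numbers in 58.3% of the cells that had one, so part of them may belong to other genes. Summed over cells, Cks2 took 5.56 and 0.0206 per 100000 counts, a 270-fold ratio with an exact 95% counting interval of 48.4 to 10674, which does not cover the spread between cells. With alike libraries counted once the ratio was 176 (31.5 to 6947), and 9 of 35 and 1 of 26 cells had a count. By repeat, counts were found in 11.1, 0, 50 and 55.6% of GFP-positive and 12.5, 0, 0 and 0% of GFP-negative cells, so GFP-positive repeats 1 and 2 lay within the range of the GFP-negative repeats. The share was 29.2% ± 27.7 and 3.13% ± 6.25 (SD, n = 4 repeats; exact permutation test, two-sided, p = 0.257, adjusted over all genes 0.525). Cdk1, the kinase that drives entry into mitosis, had 1 count in GFP-positive cell 2, and the passenger kinase gene Aurkb had 2 counts in GFP-negative cell 4. Ccnb1, the cyclin partner of Cdk1, Cdc25c, the phosphatase that activates it, and Plk1, a mitotic kinase, had none in 65 cells.

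The sequences before the start sites of 4 of these genes are shown because 1 was found in many cells and the others in 1 or none, although they are known to be switched on together in G2. Each run is the 150 bases before the start site in RefSeq on GRCm38.p6, 5′ to 3′ on the strand of the gene. Capitals mark the CCAAT box (CCAAT, or ATTGG on the other strand), which the factor NF-Y binds, and the cell cycle homology region (TTTGAA or TTCAAA), an element of genes that are repressed in resting cells.
Cks2, chr13:51645082-51645231, plus strand: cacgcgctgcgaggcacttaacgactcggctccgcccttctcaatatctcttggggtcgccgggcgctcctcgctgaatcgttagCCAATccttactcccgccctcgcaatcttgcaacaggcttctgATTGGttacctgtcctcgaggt
Cdk1, chr10:69352913-69353062, minus strand: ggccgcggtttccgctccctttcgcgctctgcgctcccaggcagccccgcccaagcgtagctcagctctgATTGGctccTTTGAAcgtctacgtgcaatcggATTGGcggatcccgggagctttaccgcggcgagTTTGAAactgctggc
Ccnb1, chr13:100786487-100786636, minus strand: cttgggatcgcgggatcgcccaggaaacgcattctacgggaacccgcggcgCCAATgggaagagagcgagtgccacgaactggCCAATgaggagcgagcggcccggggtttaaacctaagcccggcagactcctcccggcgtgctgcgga
Plk1, chr7:122159285-122159434, plus strand: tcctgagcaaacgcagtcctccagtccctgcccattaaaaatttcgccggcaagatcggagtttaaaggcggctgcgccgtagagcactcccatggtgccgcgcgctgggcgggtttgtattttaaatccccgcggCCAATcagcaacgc
The CCAAT box stood in all 4 runs, once in Plk1 and 2 times in each of the others, and the cell cycle homology region only in Cdk1. So the gene with many counts and the genes with none shared the same box. Over the 250 bases before the start, a CCAAT box on either strand was found in 22 of the 31 members with an entry (71.0%), against 33.8% of all 32851 start sites in the RefSeq table and 36.8% of the 8144 protein-coding genes of the count table that have an entry there. It stood in 18 of 23 members with a count and in 4 of 8 without. The homology region was found in 6 of 31 members (19.4%), against 16.0% of all start sites and 14.1% of those genes, and the E2F motif TTTCCCGC or GCGGGAAA in 2 of 31, Mcm7 and Cdc6, against 0.895% and 1.17%. Such a match is a match of letters and shows no binding.

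All 8 genes grouped here under chromosome and kinetochore, with the nuclear membrane gene Lbr among them, had a count and 7 reached 10 counts. At least 1 of them had a count in 32 of 37 GFP-positive and 19 of 28 GFP-negative cells, and at least 1 reached 10 counts in 17 and 4. Cenpw, a centromere protein, had counts in 27 of 37 and 10 of 28 cells. By repeat this was 88.9, 55.6, 70.0 and 77.8% of GFP-positive and 25.0, 50, 33.3 and 40.0% of GFP-negative cells, and the groups did not overlap, as was so with higher GFP-positive shares for 8.48% of all 3489 genes tested. The shares were 73.1% ± 14.0 and 37.1% ± 10.6 (SD, n = 4 repeats; exact permutation test, two-sided, p = 0.0286, the smallest possible with 4 against 4, adjusted over all genes 0.337), higher in 4 of 4 repeats. The adjusted value does not pass 0.05. At 10000 counts per cell the shares were 21.3% ± 13.3 and 17.8% ± 23.9 and overlapped. Cenpw counts were whole numbers in 40.5% of the cells that had one, and 1 cell, GFP-positive cell 15, gave 1611.5 of them, 51.5% of the sum over all cells.

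Birc5 had counts in 17 of 37 and 11 of 28 cells. Its highest values were 136.8 in GFP-positive cell 36 and 55.5 in GFP-negative cell 11, and the shares by repeat overlapped. Lbr had counts in 19 of 37 and 8 of 28 cells. In 5 GFP-positive cells it passed 100 counts, up to 4295.9 in cell 17 and 2784 in cell 14, while the highest GFP-negative value was 12. Nuf2, part of the complex that ties microtubules to the kinetochore, passed 10 counts only in cells 20 to 22, and 22.2% of its values were whole. Mad2l1, a spindle checkpoint gene, stood at 739 and 7 counts in GFP-positive cells 8 and 9 and at 0 elsewhere. Top2a, which untangles sister DNA, reached 10 counts in GFP-positive cell 18 and 1 count in each of 2 others. Cdca3 had 1 count in cell 21.

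Of the spindle and cytokinesis genes, Hmmr was the only member found in a smaller mean share of GFP-positive cells among the 14 members tested. This spindle protein gene had counts in 10 of 37 and 8 of 28 cells, 27.5% ± 11.7 and 32.7% ± 16.7 by repeat (SD, n = 4; exact permutation p = 0.657, adjusted 0.785). Without repeat 3 the difference turned to 0.833 points in the other direction. GFP-positive cells 4, 17 and 3 held 230.2, 167.4 and 53.8 counts, and GFP-negative cells 11, 12 and 28 held 135.9, 30.8 and 21.4. Both groups therefore had cells with high Hmmr, though only 44.4% of its values were whole numbers. The libraries of GFP-negative cells 11 and 12 correlated at 0.819, so these may not be separate observations. Prc1, which bundles the central spindle, was found in 12 and 4 cells and never passed 12.5 counts. Kif20a, a motor of cytokinesis, stood at 153.2, 43.0 and 3.67 in GFP-positive cells 5, 8 and 37 and at 0 in all others. None of these Kif20a values was whole. Kif14 and Aspm stayed at 2 counts or fewer.

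Origin licensing genes were led by the helicase subunits. At least 1 of these genes reached 10 counts in 18 of 37 GFP-positive and 2 of 28 GFP-negative cells. Mcm3 passed 10 counts in 7 GFP-positive cells, at 2929, 1392, 1095, 260, 106, 79 and 51 counts, and its highest GFP-negative value was 7. The shares with a count were 38.6% ± 26.8 and 10.4% ± 12.5 (SD, n = 4; exact permutation p = 0.143, adjusted 0.439), and GFP-positive repeat 3, at 10%, lay among the GFP-negative repeats. Mcm6 was found in 15 of 37 and 10 of 28 cells, and GFP-positive cell 3 alone held 60299.8 counts, 87.9% of all Mcm6 counts. The alike GFP-negative cell 3 held 1051, the only GFP-negative value over 10, so with alike libraries counted once the GFP-negative sum fell to 15 counts. Mcm7 was found in 13 of 37 cells, 8 of them at 10 or more, and in 1 of 28, GFP-negative cell 17, which held 677 counts and so 58.1% of all Mcm7 counts. With alike libraries counted once, 11 of 35 GFP-positive cells had Mcm7 and 6 passed 10 counts. Gmnn, the geminin that blocks a second licensing, stood at 1173 counts in GFP-positive cell 5 and at 4 or fewer elsewhere. Cdc6, the helicase loader, and Ccne1, the cyclin of S phase entry, had no count.

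Genes of DNA synthesis reached 10 counts in 11 of 37 GFP-positive cells and in 0 of 28 GFP-negative cells. Lig1 had counts in 11 and 2 cells. Its GFP-positive values were led by 5736 in cell 22 and 2004.7 in cell 17, with 83, 67, 34, 23 and 22 next, and the GFP-negative sum was 3 counts. That is a 257-fold ratio with an exact 95% counting interval of 88.0 to 1248, which does not cover the spread between cells. Cell 22 alone gave 71.8% of all Lig1 counts. With alike libraries counted once, which leaves out cell 22, the ratio was 67.7 (23.2 to 329). By repeat, 22.2, 22.2, 40.0 and 33.3% of GFP-positive and 0, 25.0, 0 and 10% of GFP-negative cells had a count (exact permutation p = 0.0857, adjusted 0.392), so the groups overlapped through GFP-negative repeat 2. Rrm1, the large subunit of ribonucleotide reductase, stood at 915 and 20 in GFP-positive cells 7 and 36 and under 10 elsewhere, while Rrm2, its small subunit, was at 0 in every cell. Pold1, the catalytic subunit of polymerase delta, stood at 421, 16 and 13 in GFP-positive cells 3, 21 and 27 and at 8 in GFP-negative cell 3. Tk1 and Pole2 had no count.

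Genes grouped here under repair of replicating DNA were present in both groups. Brip1, a helicase that works with BRCA1, had counts in 23 of 37 and 11 of 28 cells and passed 10 counts in 12 and 5. Its highest values were 159 in GFP-positive cell 4 and 134.2 in GFP-negative cell 15, and the shares by repeat, 61.9% ± 11.8 and 42.9% ± 19.2, overlapped (exact permutation p = 0.229, adjusted 0.525). Rad51ap1, a gene of repair by recombination, was found in 15 and 7 cells, and GFP-positive cell 26 held 491.7 counts, 79.7% of the sum. Whole numbers made up 35.3% of the Brip1 and 13.6% of the Rad51ap1 values. The ubiquitin ligase gene Ubr7, placed in this group for listing only, was found in 9 and 2 cells. It had 1010 and 876 counts in GFP-positive cells 5 and 8 and at most 2 in a GFP-negative cell. Brca1 and Exo1 were at 0.

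**Figure D4:**
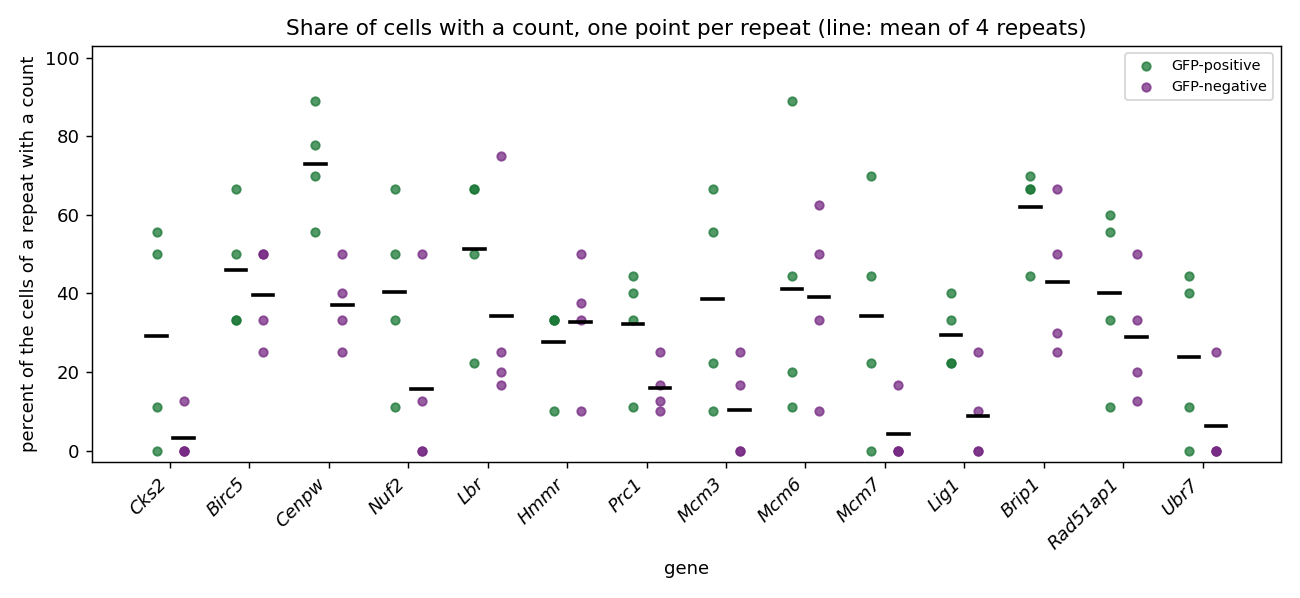
Percent of the cells of each repeat with a count of each of the 14 members found in at least 10 cells, 1 point per repeat with a line at the mean of 4 repeats. Cenpw is the only gene whose points do not overlap between the groups.

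The direction of the members was that of the genes at large. Of the 26 members with a count, 24 were found in a larger share of GFP-positive cells (92.3%), as were 87.5% of the 6826 genes with a count. Of the 21 members that reached 10 counts, 13 did so in GFP-positive cells alone and 8 in both groups, and of all genes 45.4% did so in GFP-positive cells alone and 2.36% in GFP-negative cells alone. Among the 14 members found in at least 10 cells, 13 had a higher mean share in GFP-positive repeats, against 93.5% of the 3489 genes tested. The shares of 1 member, Cenpw, did not overlap, against 8.48% of all genes. With each cell at 10000 counts, 10 of the 14 members had a higher mean share in GFP-positive repeats and 4 a lower one, against 75.5% of all genes higher. The shares of all 14 then overlapped, beside 5.07% of all genes higher and 0.115% lower without overlap. In this exact permutation test 296 genes with higher and 0 with lower GFP-positive shares passed 0.05 before adjustment, and 0 genes passed it afterwards (smallest adjusted p 0.337).

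Summed levels gave no call either. All cells of 1 group and repeat were added up, and edgeR's quasi-likelihood test, adjusted by Benjamini-Hochberg, called 0 of 2786 genes (0%), with a smallest adjusted p of 0.326. At an unadjusted p under 0.05, 6.46% of genes were higher and 4.38% lower in GFP-positive sums, and DESeq2 called 8 higher (0.287%) and 6 lower (0.215%). Of the 10 members with enough counts to be tested, 6 had a positive and 4 a negative log2 fold change, against a median of 1.15 over all genes. Cks2 had 9.35 ± 3.09 (SE; adjusted p = 0.326 by edgeR) and Lig1 7.42 ± 2.76 (0.326), both over GFP-negative sums of 1 and 3 counts, so that these fitted values depend on the prior count. Mcm3 had 4.89, Ubr7 4.34, Lbr 2.45 and Mcm6 0.70. With alike libraries counted once, Mcm6 had 4.94, Mcm3 3.56, Lig1 4.39 and Cks2 8.07, none of them called by edgeR, and Ubr7 was found in too few cells to be tested. Cenpw had -0.75, Brip1 -3.05, Mcm7 -3.44 and Hmmr -4.50, and the sign of Cenpw, Mcm6, Mcm7 and Lbr turned in at least 1 other fit. Of these, Mcm7 followed 1 cell. Its scaled level was 1297 CPM in GFP-negative repeat 3 and 0 in the other GFP-negative repeats. In the GFP-positive repeats it was 0.366, 0, 99.3 and 20.3. The TMM scaling factors were 0.290 and 0.223 in GFP-negative repeats 3 and 4, which raises scaled levels there, and up to 2.04, in GFP-positive repeat 1. With total-count scaling the median log2 fold change over all genes was 1.78.

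Other cell cycle lists were sparse in the same way. Of 47 further S phase genes 13 had a row and 12 a count, among them Rpa1 (14 of 37 and 1 of 28 cells) and Chaf1a (12 and 6 cells). Of 62 further G2 and M genes 14 had a row and 9 a count. Gas2l3, found in 28 and 12 cells, was the 1 of 6 tested whose shares did not overlap, while Foxm1, the factor that switches on mitotic genes, was at 0. All 16 genes of G1 and quiescence control with a row had a count. Of the 12 tested, 11 had a higher mean share in GFP-positive repeats, and E2f3 (16 and 3 cells) and Btg1 (30 and 11 cells) did not overlap, beside 93.5% higher and 8.48% not overlapping over all genes. At 10000 counts per cell the 2 that did not overlap were Ccnd3 and Cdkn1b, beside 5.07% of all genes. None of these passed the adjusted exact permutation test. Ccnd3 was at 10 or more counts in 16 GFP-positive and 0 GFP-negative cells.

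Markers of other blood cells were set beside the cells with several members. The erythroid genes took 92.5% of the counts of 1 GFP-positive cell, but at most 0.772% in a cell with several members. There the B cell genes reached at most 0.00822%, the neutrophil genes 0.00933%, the monocyte and macrophage genes 0.0385% (Cd68 in GFP-positive cell 11) and the megakaryocyte progenitor genes 0.594% of counts. The T and NK cell genes were at 0 in all cells. Of the 4 megakaryocyte progenitor genes with a row, 3 had counts in each of cells 20, 21 and 22. The integrin gene Itgb3, which megakaryocytes share with stem cells, stood at 2866, 5176 and 2134 counts there. Itga2b stood at 14, 53 and 14 and Vwf at 45, 80 and 31. The fourth gene, Gp9, was at 0 in all 65 cells. The part of these genes in the values of the members was not tested.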

How the data were processed

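The deposited table gives estimated counts per gene and cell, which the authors made from their reads; the submitters' processing notes name mm10 and DESeq, and aligner, counter and gene models are, however, not given in the sources used for this work. The authors name the table as normalized counts, but totals from 86.1 to 20516069 per cell show no scaling, so the values were treated as unscaled counts; if another scaling was applied, a value of 10 would not mean 10 reads. Of 18036 identifiers, 16262 matched a symbol in RefSeq (GRCm38.p6). Cells are not replicates: members at 10 or more counts per cell and shares of cells were averaged per repeat, 4 per group. Shares of cells with a count were compared by an exact two-sided permutation test for the 3489 genes found in at least 10 cells. Rounded sums per repeat and group were tested with edgeR 4.0.16 (TMM; genes with a mean of at least 10 counts per cell and a count in at least 10 cells), and with DESeq2 1.42.0 as an alternative. Both were tested on simulated data. Same-numbered repeats of the groups deviated together over genes (correlations 0.554, 0.291, 0.170 and 0.157). GFP-negative repeat 3 also correlated at 0.146 with GFP-positive repeat 4, and GFP-negative repeat 4 at 0.0999 with GFP-positive repeat 3. The repeats numbered 1 hold the alike GFP-positive and GFP-negative cells 3. The numbers may therefore pair the samples, which these values do not settle, and a replicate block was tried. Equal depth means the expected number of genes with a count when 10000 counts are drawn from a cell. Values are called whole within 0.0001. Libraries are called alike at a correlation of at least 0.9 (0.7 as a looser limit), a choice made after seeing the data, and the deepest of them is kept. Values are given per cell for Mki67 and for members at 10 or more counts in at least 5 cells, and other members by counts or their few values; a few single-cell values of others were chosen after they were seen. The kit marks neither strand nor molecule, so overlapping genes cannot be told apart and counting intervals cover counting error only. The members and lists were chosen with earlier results of these data known.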

Additional observations from a re-analysis of the deposited data

Results flagged for a closer look

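In groups of 4 repeats, the highest or lowest repeat stood far from the other 3 in 7 of 34 groups examined, where chance gives about 1 in 20. Many of these groups hold several zeros, which makes such a gap easy to reach. For the GFP-negative cells, 25.0% of the cells of repeat 2 held 3 or more members at 10 or more counts, against 0% in the other 3 repeats, and this is 1 of 4 cells. Cks2 was found in 12.5% of the GFP-negative cells of repeat 1 and in none of the others, Mcm7 in 16.7% of those of repeat 3 and in none of the others, and Ubr7 in 25.0% of those of repeat 1 and in none of the others. Lbr was found in 75.0% of the GFP-negative cells of repeat 2, against 16.7 to 25.0% elsewhere. Among GFP-positive cells, Hmmr was found in 10% of the cells of repeat 3, against 33.3% in each of the others, and Brip1 in 44.4% of those of repeat 4, against 66.7 to 70.0%.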

How the results depend on the processing

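edgeR called 0 genes under every alternative, and DESeq2 called 14, none of them a member; 4 of the 10 members had no adjusted p there. At an unadjusted p under 0.05 edgeR had 180 higher and 122 lower genes, and 56 to 556 and 9 to 346 over the alternatives. The exact test of shares called 0 genes in each setting with 4 repeats a group; without a replicate it cannot go below 0.1, and sign flips over 4 pairs cannot reach 0.05 either, so 0 calls there say nothing. The replicate block, which pairs the groups by repeat, called 0 genes by edgeR (smallest adjusted p 0.523) and so changed no call; its sign flips of the shares gave a smallest adjusted p of 0.428. GFP-positive minus GFP-negative, the members per cell differed by 2.37 at 10 or more counts, 0.887 at 100 or more, 0.621 at equal depth and 0.672 with whole-count members only, and by 1.88 to 2.91 without each replicate. The share of cells with several members differed by 42.1 points, by 24.2 with 5 or more members, 15.2 with any count, 13.9 with 100 or more counts and 10.3 with whole-count members only, and by 33.9 to 53.3 without each replicate; without GFP-negative replicate 2 no GFP-negative cell held several. Signs turned for Birc5 (share difference -13.3 points at equal depth, -1.93 without cells under 10000 counts), Mcm6 (-1.75 without those cells; -5.93 to 7.31 without each replicate), Brip1 (-6.95 at equal depth) and Hmmr (-14.7 to 0.833 without each replicate). Log2 fold changes turned for Cenpw (0.19 with all genes with any count, 0.20 under the replicate block, -1.77 to 1.58 without each replicate), Mcm6 (-3.46 with cells rescaled to the same total, -1.81 to 5.50 without each replicate), Mcm7 (1.36 under the replicate block) and Lbr (-0.23 to 4.89 without each replicate). The Mcm6 change was 4.94 with alike libraries counted once, which leaves out GFP-negative cell 3. The causes were not tested. In all, 6 of 120 share differences and 11 of 167 fold changes of named members turned sign. With 4 repeats a group the exact test cannot go below 0.0286, and 65 cells limit what any share can show.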
